A study of Mus musculus with 2 samples.

Results

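The genes of the cytosolic ribosomal proteins were compared between CT26 cells with a Setdb1 knockdown and their empty-vector control, subunit by subunit. Members were the protein-coding loci whose names begin with Rpl or Rps followed by a digit, together with Rplp0, Rplp1, Rplp2 and Rpsa. Names beginning with Rps6k, which are kinases of ribosomal protein S6, and names of -ps loci were left out. The rule found 86 genes among the 54680 loci of the deposited table. Of these, 46 are main genes of the large subunit and 31 are main genes of the small subunit. The other 9 are paralogs and relatives caught by name, namely Rpl3l, Rpl7l1, Rpl10l, Rpl22l1, Rpl36al, Rpl39l, Rps27l, Rps27rt and Rps19bp1. Rps19bp1 encodes a protein that binds RPS19 and is not itself a ribosomal protein.

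CT26 is a mouse colon carcinoma line. The control group, CT26shCtrl, carried a lentivirus with the empty knockdown vector, and the knockdown group, CT26shSetdb1, carried a lentivirus with a short hairpin RNA against Setdb1, a histone H3 lysine methyltransferase. Both were cultured for 6 days, and the labels call the knockdown cells differentiated. Each group had 1 library of total RNA, so no difference below has a replicate check and none was tested; whether the infected cells were a pool or a clone, and how many hairpins were used, is not given in the sources used here. Setdb1 itself had 1340 reads (10.4 FPKM) in the control and 317 reads (2.47 FPKM) in the knockdown. FPKM scales a read count to gene length and to sequencing depth. Here the same depth, 18731117, was used for both libraries, so their own totals are not divided out.

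The cytosolic ribosome joins a small subunit, which reads the mRNA, to a large subunit, which forms the peptide bond and holds the exit tunnel. Each subunit carries 1 copy of nearly all of its proteins, and free proteins made in excess are degraded, so the genes are known for being expressed as a coordinated set. Their mRNAs begin with a pyrimidine tract, the 5′ terminal oligopyrimidine (TOP) motif, through which LARP1 and mTORC1 control their translation, and MYC promotes their transcription together with that of ribosome assembly factors.

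Ribosomal protein mRNA was lower in the knockdown library in both subunits, by a modest and similar amount from gene to gene. The 77 main genes took 1481188 of 18421604 reads in the control, a share of 8.04% (exact 95% binomial interval 8.03 to 8.05%). They took 1145804 of 19045830 reads in the knockdown, a share of 6.02% (6.01 to 6.03%). These intervals, and those below, cover counting error only and hold no spread between cultures, since each group had 1 library. Where PCR copies of 1 molecule were counted as separate reads, the intervals are too narrow. The library totals differed by a factor of 1.03. The shares are relative to all reads of each library and give no amount of RNA per cell. In bulk RNA, less ribosomal protein mRNA per cell and fewer cells rich in it cannot be told apart.

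Of the main genes, 75 reached 1 FPKM in at least 1 library, and 70 of these 75 (93.3%) had a log2 ratio of (FPKM + 1), knockdown over control, under 0. Among all 10671 genes at 1 FPKM or more, 50% were under 0. At least 1.2-fold lower were 50 of the 75 main genes (66.7%), against 31.1% of all genes, and no main gene was at least 1.2-fold higher, against 31.7% of all genes. At least 1.5-fold lower were 6 main genes (8%), a smaller share than the 14.3% of all genes. Of the 689 genes at 100 FPKM or more, members included, 49.9% were under 0 and 31.3% were at least 1.2-fold lower, near the shares for all genes. The median log2 ratio was -0.33 over the main genes and 0.09 over the 622 other genes at 100 FPKM or more. The main genes lay close together, with an SD of 0.19 over genes against 0.70 over all genes, and 66 of the 75 were within 0.3 of their median.

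**Figure D1:**
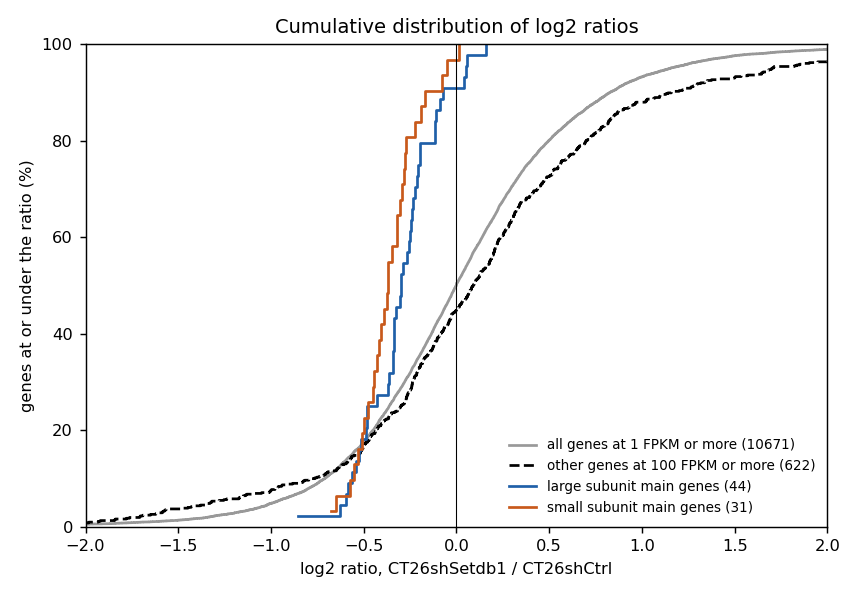
Cumulative percentage of genes (vertical axis) at or under each log2 ratio of CT26shSetdb1 to CT26shCtrl (horizontal axis), with 1 library per group. The curves of the 44 large-subunit and 31 small-subunit main genes are steep and lie mostly left of 0, with medians of -0.30 and -0.37, while all genes and other genes at 100 FPKM or more spread widely on both sides; the horizontal axis stops at 2 in each direction.

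Both subunits were lower, the small one in a larger share of its genes at 1.2-fold but not at 1.5-fold. At least 1.5-fold lower were 4 large-subunit genes (9.09%) and 2 small-subunit genes (6.45%), against 14.3% of all genes. In the large subunit 40 of 44 genes were lower, 25 of them (56.8%) at least 1.2-fold, and the median log2 ratio was -0.30 with quartiles of -0.44 and -0.21. In the small subunit 30 of 31 were lower, 25 of them (80.6%) at least 1.2-fold, and the median was -0.37 with quartiles of -0.46 and -0.28. The difference between the medians was 0.07, and the SD over genes was 0.20 in the large and 0.16 in the small subunit; with 1 library per group this difference was not tested. Summed reads went from 899239 to 702612 in the large subunit, 78.1% of the control, and from 581949 to 443192 in the small subunit, 76.2% of the control.

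**Figure D2:**
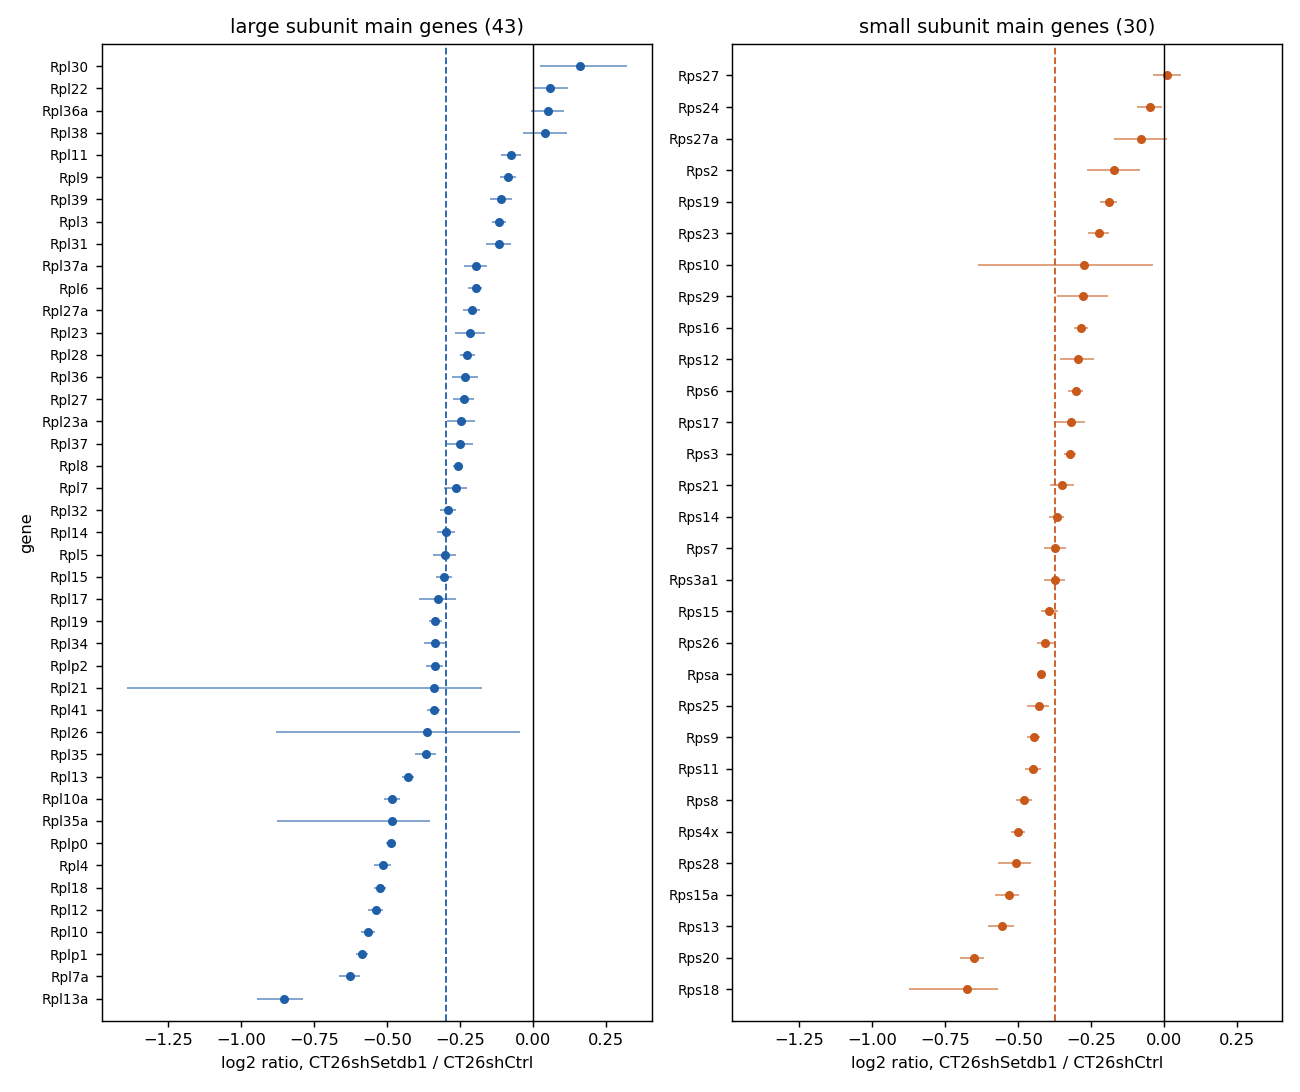
Log2 ratio of CT26shSetdb1 to CT26shCtrl (horizontal axis) for 43 large-subunit and 30 small-subunit main genes at 1 FPKM or more (vertical axis); bars are 95% counting intervals of the read ratio and dashed lines are the medians over all 44 and 31 genes, -0.30 and -0.37. All but 5 genes lie left of 0, and the wide bars belong to genes with few reads such as Rpl21 and Rpl26.

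The stalk of the large subunit, which recruits and activates the GTPases of translation, was lower in all of its listed genes. Of all large-subunit main genes, 90.9% were lower. Rplp0, the stalk's anchor, had 2260 FPKM in the control and 1611 in the knockdown, a log2 ratio of -0.49 (95% counting interval of the read ratio -0.50 to -0.47). Rplp1, the highest of all members, went from 5772 to 3846 FPKM (-0.59). Its partner Rplp2 had 505 and 399.7 FPKM (-0.34), and Rpl12, at the stalk's base, had 450.7 and 309.8 FPKM (-0.54). The median of these 4 was -0.51, against -0.30 over the subunit.

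The 2 proteins that form a particle with 5S rRNA, and that bind the p53 regulator MDM2 when ribosome assembly fails, differed in their ratios. Rpl5 went from 152.6 to 123.6 FPKM (-0.30), close to the large-subunit median of -0.30. Rpl11 was lower by less, from 268.5 to 254.9 FPKM (-0.07, interval -0.11 to -0.04). Rpl11 was thus among the 5 large-subunit genes with the highest ratios. Around the exit site of the nascent chain all 8 genes were lower, against 90.9% of the large-subunit main genes and 50% of all genes. Their median was -0.33. They ranged from Rpl4 (592.2 to 414.2 FPKM, -0.51), which lines the tunnel, to Rpl39 (441.1 to 408.9 FPKM, -0.11), which sits near its end.

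The lowest large-subunit ratio was that of Rpl13a, whose protein can leave the ribosome and restrain the translation of inflammatory mRNAs in myeloid cells. Rpl13a had 3674 reads (92.8 FPKM) in the control and 2016 reads (50.9 FPKM) in the knockdown, 54.9% of the control and a log2 ratio of -0.85 (interval -0.94 to -0.79). Rpl7a followed at 449.5 and 290.6 FPKM (-0.63). Rpl10, which joins near the catalytic centre late in assembly, had 888.7 and 600.2 FPKM (-0.57). The intervals of these 3 genes lay wholly under the subunit's median of -0.30. This follows from their choice as low genes, and it also held for other large-subunit genes such as Rpl12 and Rpl4.

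In the small subunit, the lowest ratios were in Rps18 and Rps20. Both belong to the head, the domain that swivels during translocation. Rps18 had 943 and 573 reads (20.2 and 12.3 FPKM, -0.68), or -0.40 with the pseudogene loci of the same protein described below, and Rps20 had 163.5 and 103.7 FPKM (-0.65). Rps13 (190.6 and 129.5 FPKM, -0.55) and Rps15a (104 and 71.7 FPKM, -0.53) belong to the body. The 14 genes of the head list had a median of -0.32 and a mean of -0.38, and 12 of them (85.7%) were at least 1.2-fold lower. The other 17 small-subunit genes had a median of -0.37, a mean of -0.35 and 13 genes (76.5%) at least 1.2-fold lower, so median and mean order the 2 sets differently. Over all genes, 31.1% were at least 1.2-fold lower. The highest head gene was Rps27a, which is made as a fusion with ubiquitin (54.2 and 51.2 FPKM, -0.08, interval -0.17 to 0.01).

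A few main genes were level between the libraries or slightly higher in the knockdown. Rpl22, an RNA-binding protein needed for the development of T cells, had 85.3 and 88.8 FPKM (0.06, interval 0.00 to 0.12). Rpl36a had 159.5 and 165.2 FPKM (0.05) and Rpl38, which is known for its part in the translation of Hox mRNAs, had 272.2 and 279.8 FPKM (0.04); the intervals of both include 0. In the small subunit Rps27 had 358.1 and 360.9 FPKM (0.01, interval -0.04 to 0.06), and Rps24 had 79.8 and 77.1 FPKM (-0.05). Rps2, at the entry of the mRNA channel, had 62.1 and 55.1 FPKM (-0.17, or -0.06 with tied loci), and Rps19, the gene most often mutated in Diamond-Blackfan anaemia, had 219.4 and 192.4 FPKM (-0.19). By counting error alone, the interval lay wholly under 0 in 69 of the 75 genes, included 0 in 4 and lay wholly above 0 in 2, Rpl22 and Rpl30. The median half-width of these intervals was 0.04, so at this depth even small differences can leave out 0. The same count over all genes is not given here. The direction of these small differences rests on the scaling: divided by each library's own total, Rpl38 (-0.01) and Rps27 (-0.04) were under 0 and Rpl22 had 0.01, and with upper quartile scaling Rpl36a was also just under 0.

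Genes mutated in Diamond-Blackfan anaemia, a failure of red cell production, had a median close to that of all main genes. Of 19 on the list, 18 (94.7%) were lower and 13 (68.4%) at least 1.2-fold. These shares are near the 93.3% and 66.7% of all main genes, against 50% and 31.1% of all genes. The median of the list was -0.30. They ranged from Rps15a (-0.53) to Rps27 (0.01). Main genes that hold a snoRNA gene within their bounds had a median of -0.33 (30 genes) and those without one had a median of -0.32 (45 genes at 1 FPKM or more). Across the 75 main genes, as a description only, Spearman's rho of the log2 ratio was -0.28 with the control FPKM, -0.10 with the GC content of the transcript and -0.06 with the length of the gene model. Over 10516 genes of all kinds, rho with GC content was 0.24. In 18 of the 77 main genes, Rps18, Rps10, Rpl12 and Rpl30 among them, the locus overlaps another gene with reads other than a snoRNA or miRNA; whether the counting used strand is not given in the sources used here.

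Annotated starts with a pyrimidine run were frequent among these genes, and genes with and without one had similar ratios. Starts from the RefSeq promoter table (GRCm38.p6) were found for 57 of the 77 main genes. In 13 of the 57 (22.8%) the first base of at least 1 annotated start was a C followed by at least 4 more C or T, against 3.01% of 27025 RefSeq genes. The median log2 ratio was -0.30 in those 13 and -0.34 in the other 44. Annotated starts can be off by some bases, so a missed run says only that it is not at that base. The windows below, each 20 bases before the annotated start and 10 bases from it on the gene's strand, are shown for low members (Rpl13a, Rpl7a, Rps18, Rps15a) and for members near 0 (Rps24, Rps27, Rpl38, Rpl22). Capitals mark runs of 5 or more C or T. For Rps24 and Rpl22, which have more than 1 annotated start, the upstream start is shown. The windows of their other starts hold no such run, and the Rpl22 window shown lies upstream of the gene's listed bounds (chr4:152325742-152334071). These members are examples, and every window shown holds a run. The low members Rpl10 (-0.57) and Rps13 (-0.55) and the level member Rpl36a (0.05) hold none in the same window.
Rpl13a, chr7:45128736-45128765, minus strand: gataagaaaccctgcgacaagaCCTCCTCC
Rpl7a, chr2:26910787-26910816, plus strand: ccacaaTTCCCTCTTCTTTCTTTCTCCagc
Rps18, chr17:33955656-33955685, minus strand: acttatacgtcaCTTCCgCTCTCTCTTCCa
Rps15a, chr7:118116138-118116167, minus strand: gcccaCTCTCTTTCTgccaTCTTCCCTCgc
Rps24, chr14:24490658-24490687, plus strand: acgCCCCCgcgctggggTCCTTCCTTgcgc
Rps27, chr3:90213639-90213668, minus strand: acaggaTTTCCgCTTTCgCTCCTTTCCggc
Rpl38, chr11:114668560-114668589, plus strand: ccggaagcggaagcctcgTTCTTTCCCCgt
Rpl22, chr4:152324416-152324445, plus strand: atcagcgctgCTTCTggaatgttccagctc
A run that begins the transcript with a C stands in Rps18 and Rps15a, which were low, and also in Rps27 and Rpl38, which were level. In Rpl7a and Rps24 a run also spans the annotated start, where the first base is a T. In the 250 bases before the start, on either strand, CCGGAAG (the core of ETS factor sites) occurred in 31.6% of the 57 genes and in 7.83% of all RefSeq genes. AANATGGC (the core of YY1 sites) occurred in 17.5% and 4.49%, and TATAAA in 5.26% and 14.3%. These matches are descriptions of the letters and say nothing of binding.

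The paralogs gave a range of ratios. Of the 9 genes outside the main lists, 6 reached 1 FPKM, and 5 of those (83.3%) were lower, against 50% of all genes. The 3 that did not reach it were Rpl3l, the skeletal and cardiac muscle form of Rpl3, with 2 reads in the control and 0 in the knockdown, Rpl10l, the male germ line form of Rpl10, with 0 reads in both, and Rpl36al with 15 and 20 reads. Rps19bp1 had 66.7 and 50.6 FPKM (-0.39).

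Rps27 has 2 close relatives in this set, and their coding sequences show how well reads can be told apart. The first 90 bases of the coding sequence of each are given, taken from the GENCODE M21 transcripts, with capitals where a paralog differs from Rps27.
Rps27: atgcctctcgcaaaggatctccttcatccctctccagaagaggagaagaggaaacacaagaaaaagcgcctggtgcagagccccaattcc
Rps27rt: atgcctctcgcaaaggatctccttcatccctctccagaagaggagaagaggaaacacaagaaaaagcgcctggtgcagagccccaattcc
Rps27l: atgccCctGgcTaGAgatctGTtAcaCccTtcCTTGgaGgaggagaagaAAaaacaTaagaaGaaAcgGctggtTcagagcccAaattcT
Rps27 (chr3:90212522-90213651, minus strand) and Rps27rt (chr9:114982366-114982739, minus strand, a gene model of 374 bases) are identical over all 252 coding bases, so only reads that reach outside the coding part can separate them. Rps27l (chr9:66946086-66949516, plus strand), a p53 target, differs from Rps27 at 60 of the 252 bases (76.2% identity). Rps27rt was among the lowest of all members, at 4624 and 2999 reads (660.1 and 428.1 FPKM, -0.62), while Rps27 had 6997 and 7051 reads. How reads that match both loci were assigned is not given in the sources used here, and its part in this contrast was not tested. Summed over both loci, reads went from 11621 to 10050, a log2 read ratio of -0.21. Rps27l was level at 3080 and 3032 reads (201.5 and 198.4 FPKM, -0.02, interval -0.10 to 0.05), and its share of the reads of Rps27 and Rps27l together was 30.6% (exact 95% interval 29.7 to 31.5%) in the control and 30.1% (29.2 to 31.0%) in the knockdown.

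Rpl39 and its paralog Rpl39l, which is prominent in the testis, are set side by side because both were well expressed here. The first 90 coding bases follow, with capitals where Rpl39l differs.
Rpl39: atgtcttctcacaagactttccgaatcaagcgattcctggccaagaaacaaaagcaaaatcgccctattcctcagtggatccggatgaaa
Rpl39l: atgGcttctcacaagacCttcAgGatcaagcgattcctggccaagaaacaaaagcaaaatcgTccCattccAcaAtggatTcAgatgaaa
They differ at 23 of 153 coding bases (85.0% identity). Rpl39l (chr16:10170226-10174911) had 2774 and 2132 reads (178.2 and 137 FPKM, -0.38) and was lower by more than Rpl39 (-0.11). Its share of the pair's reads was 19.0% (18.3 to 19.6%) in the control and 16.3% (15.6 to 16.9%) in the knockdown.

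Rpl22l1 lay below its main gene and Rpl7l1 above. Rpl22l1, whose mRNA is known to be held down by RPL22, had 873 and 604 reads (23.4 and 16.2 FPKM, -0.51, interval -0.68 to -0.38) while Rpl22 had a log2 ratio of 0.06. Its share of the reads of the pair was 15.8% (14.9 to 16.8%) in the control and 11.1% (10.3 to 12%) in the knockdown. Rpl7l1, a nucleolar relative of Rpl7, had 2549 and 2817 reads (38.9 and 43.0 FPKM, 0.14, interval 0.07 to 0.22) while Rpl7 had 242 and 201.2 FPKM (-0.26). Its share of the pair went from 17.3% (16.7 to 17.9%) to 21.8% (21.1 to 22.5%). These intervals compare these 2 libraries by counting error and say nothing of the spread between cultures.

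**Figure D3:**
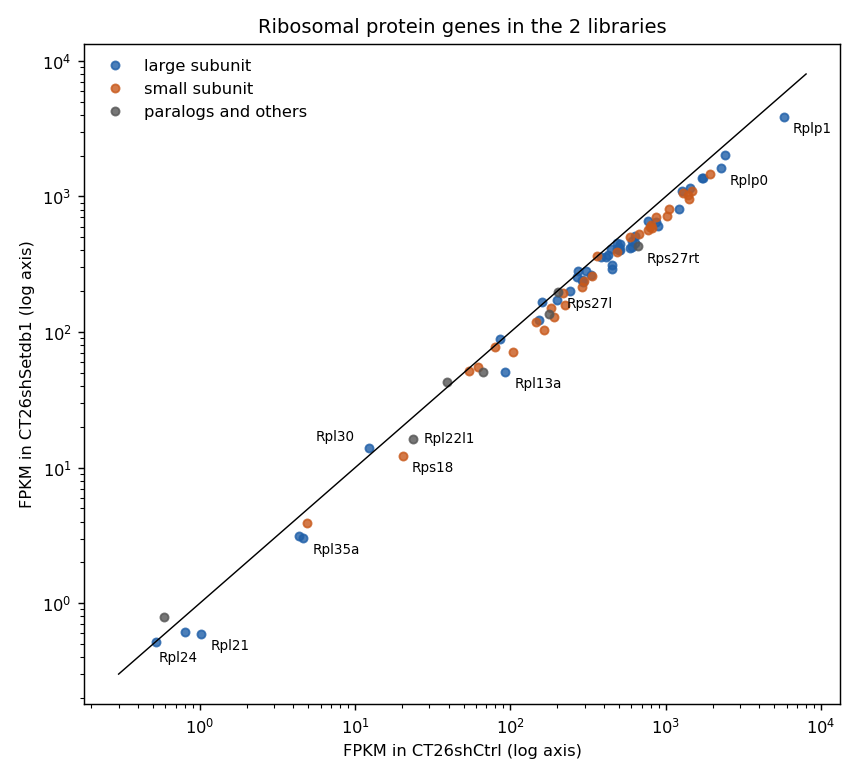
FPKM of each member in CT26shCtrl (horizontal, log axis) and CT26shSetdb1 (vertical, log axis), by subunit; the line marks equal levels, and Rpl3l and Rpl10l, at 0 in 1 or both libraries, are not drawn. Nearly all points run just under the line from Rpl24 at 0.518 FPKM to Rplp1 at 5772 FPKM in the control.

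Levels per length spread far more between genes than between libraries, although nearly all of the proteins are carried in 1 copy per subunit. The length is that of the gene model, which was 6270 bases for Rps15a (390 coding) and 499 bases for Rplp1 (342 coding). The part of this length in the spread was not tested. In the control the median was 450.1 FPKM in the large and 358.1 FPKM in the small subunit. The small subunit ran from Rps10 (4.90 FPKM) to Rps15 (1916 FPKM). The large subunit ran from Rpl24 (0.518 FPKM, 10 reads in each library) to Rplp1. Across the 77 main genes Pearson's r between the libraries' log2(FPKM + 1) was 0.997. In all, 8 main genes were under 25 FPKM in both libraries, namely Rpl24, Rpl29, Rpl21, Rpl26, Rpl35a, Rps10, Rpl30 and Rps18.

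For these low genes, reads stood at other loci that the table ties to the same protein. Loci were tied to a main gene when they are pseudogenes or -ps loci that carry its name or the same Swiss-Prot protein match in the table. There were 1505 of them, 372 with reads, and together they held 293204 reads in the control, 16.5% of the reads of main genes and tied loci, and 248825 in the knockdown, 84.9% of the control. Rpl26 had 117 reads while the processed pseudogene Gm15772 (chr5:3236431-3236868) had 11629. Rps10 had 212 while Rps10-ps2 (chr16:20822145-20822640) had 8235, and Rpl30 had 699 while Gm12191 (chr11:49678710-49679057) had 5856. Rpl29 had 17 reads, and Gm13841 (chr5:115801677-115802159) had 3026. A protein-coding locus outside the name rule, Gm11361, matched Rps18 and held 5462 reads in the control and 3936 in the knockdown. In 12 of 77 main genes the tied loci held more reads than the named gene. The values of these genes are those of the named locus alone, and the part of read assignment in their low levels was not tested. The tied loci of Rpl24 held only 350 reads in the control.

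**Figure D4:**
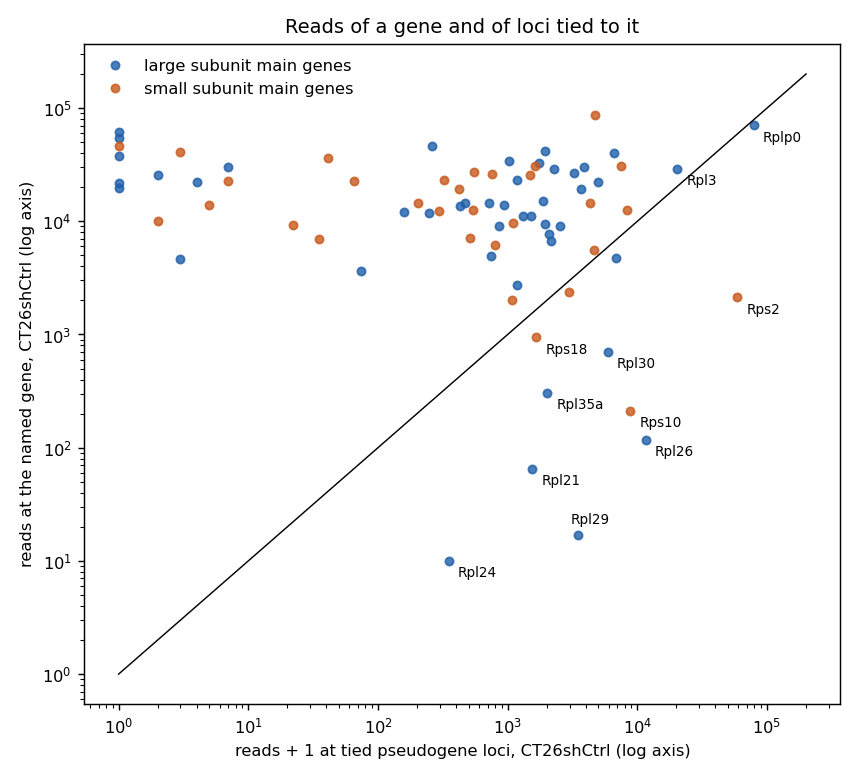
Reads at the named main gene (vertical, log axis) against 1 plus the reads at the pseudogene loci tied to it (horizontal, log axis) in CT26shCtrl, by subunit; the line marks equal values of both axes. Points under the line, such as Rpl26, Rps10, Rpl30 and Rps2, are genes whose tied loci held more reads than the gene itself.

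Adding the tied loci kept the direction of the group and changed single genes. With them the median log2 ratio was -0.29 in the large and -0.37 in the small subunit. Rpl30, the main gene with the highest ratio, went from 0.16 to 0.00, Rpl26 from -0.36 to -0.05, Rps10 from -0.27 to -0.42 and Rps18 from -0.68 to -0.40. Rps2, with 2130 reads against 59065 at its tied loci in the control, went from -0.17 to -0.06. Rplp0 had 70223 reads and its pseudogene Gm8730 on chromosome 8 had 70150, a nearly equal number. In the knockdown they had 50058 and 47243, and with all tied loci Rplp0 had a log2 ratio of -0.53. Over 55 main genes whose tied loci had 100 reads or more in both libraries, Spearman's rho between the read ratios of the gene and of its tied loci was 0.56; the loci are near copies and can share reads. An exception was Gm4342, a processed pseudogene tied to Rpl35 (chr8:123853829-123854195), which was picked after its values were seen: it had 929 reads in the control and 0 in the knockdown, while Rpl35 had 13983 and 10835.

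Of the ribosomal proteins outside the name rule, Rack1 and Fau had ratios in the range of the main genes. Rack1, a scaffold on the small subunit, had 764.3 and 559.2 FPKM (-0.45). Fau, which encodes the small-subunit protein eS30, had 1233 and 1028 FPKM (-0.26).

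Most other mRNAs with a TOP start were lower as well. Of 16 on the list, 14 (87.5%) were lower, against 50% of all genes, and 8 (50%) at least 1.2-fold, against 31.1%. The median was -0.30, and Hnrnpa1 (0.10) and Eif4b were higher. Their most abundant members are the elongation factors Eef2 (3880 and 2757 FPKM, -0.49) and Eef1a1 (4701 and 3466 FPKM, -0.44). They ranged from Npm1, a nucleolar chaperone (72.0 and 36.9 FPKM, -0.95), to the initiation factor Eif4b (62.0 and 86.4 FPKM, 0.47). Of 24 translation initiation factors, 20 (83.3%) were lower and 15 (62.5%) at least 1.2-fold, against 50% and 31.1% of all genes. Their median was -0.35, with a range from Eif5 (17.2 and 7.82 FPKM, -1.04) to Eif4a2 (5.61 and 6.97 FPKM, 0.27).

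All 10 RNA polymerase I and nucleolar genes were at least 1.2-fold lower, against 31.1% of all genes, with a median of -0.96. The lowest was Dkc1, the pseudouridine synthase of rRNA (5.30 and 1.54 FPKM, -1.31), and the highest was Ubtf, the factor that opens rDNA (37.4 and 29.0 FPKM, -0.36). Of 20 ribosome assembly and export factors, 17 (85%) were lower, against 50% of all genes. At least 1.2-fold lower were 15 (75%), against 31.1%. The median was -0.61, and Efl1, Riok2 (0.29) and Eif6 (0.18) were higher. They ran from Ltv1, which helps mature the head of the small subunit (14.2 and 2.54 FPKM, -2.11), to Efl1, which helps release a late assembly factor from the large subunit (4.45 and 6.42 FPKM, 0.45). Among 11 expressed regulators of ribosomal protein mRNA 8 (72.7%) were lower, against 50% of all genes, and 5 (45.5%) at least 1.2-fold, against 31.1%, with a median of -0.24. Myc was the lowest, at 4400 and 1547 reads (86.5 and 30.4 FPKM, -1.48), Larp1 had 24.4 and 15.7 FPKM (-0.61), and Tsc1, a brake on mTORC1, was the highest (3.38 and 4.93 FPKM, 0.44). The list mixes activators and inhibitors, so its median gives no direction for the pathway. The inhibitors Tsc2 (-0.34), Eif4ebp1 (-0.36) and Eif4ebp2 (-0.33) were lower, unlike Tsc1. Of the mTORC1 genes, Rptor (-0.15) and Rheb (-0.24) were lower, and Mtor (0.19) and Mlst8 (0.04) were higher.

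Proteins of the mitochondrial ribosome, which is a separate machine with its own genes, had ratios nearer 0 and more scattered. Of 76 expressed, 49 (64.5%) were lower, against 50% of all genes, and 27 were higher. At least 1.2-fold lower were 29 (38.2%) and higher 12 (15.8%), against 31.1% and 31.7% of all genes. The median was -0.17, with an SD over genes of 0.36 against 0.19 in the cytosolic main genes. They ran from Mrpl37 (15.2 and 7.95 FPKM, -0.86) to Mrps18c (7.24 and 13.7 FPKM, 0.84).

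**Figure D5:**
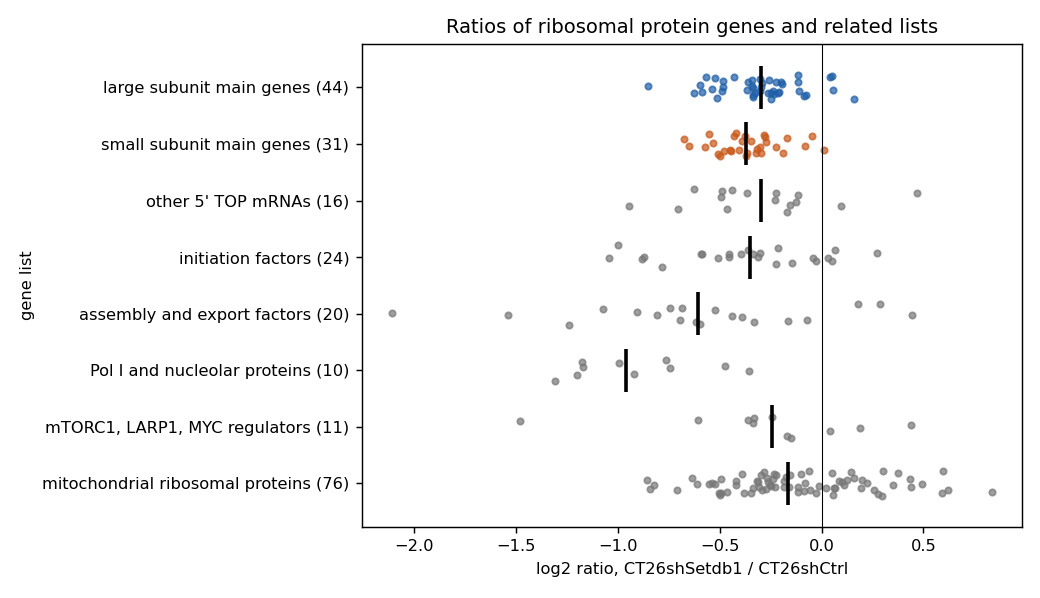
Log2 ratio of CT26shSetdb1 to CT26shCtrl (horizontal axis) of each gene at 1 FPKM or more, by list (vertical axis, number of genes in parentheses); black bars are medians and points are spread vertically only to be seen. The subunits form tight groups at -0.30 and -0.37, the assembly factors and nucleolar genes lie lower at -0.61 and -0.96, and the mitochondrial ribosomal proteins straddle 0.

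Markers of cell types also differed between the libraries. Of 10 colon epithelium markers 3 reached 1 FPKM, with Epcam, Cdh1 and Lgr5 at 0 reads in both libraries and Krt18 at 1016 and 2423 reads, and the list summed to 43.2 FPKM in the control and 128 in the knockdown. The 5 mesenchymal markers summed to 924 and 955 FPKM, of which Vim made up 752 and 835; Col1a2 had 32503 and 21896 reads, Col1a1 had 3951 and 2950, Pdgfra had 94 and 333 and Acta2 had 1 and 0. The 5 blood markers summed to 11.5 and 101 FPKM, nearly all from Cd68, with Cd3e at 0 reads in both and Ptprc at 0 and 4 reads. Their part in the ratios of the ribosomal protein genes was not tested.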

How the data were processed

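RNA of 1 library per group was sequenced after preparation with a NEBNext Ultra kit, per the labels' protocols. Per the submitters' processing notes, CASAVA, HISAT2 and featureCounts 1.5.0-p3 were used with genome build GRCm38. The authors deposited FPKM per gene with its length. Multi-mapping and strand settings are not given in the sources used here. Multiplying FPKM by gene length gave whole reads for 100% of values (tolerance 0.001), with the depth 18731117 used for both libraries, so the totals of 18421604 (control) and 19045830 (knockdown) are not divided out.

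Log2 ratios of (FPKM + 1) were taken where either library reached 1 FPKM. Intervals are exact 95% counting intervals. With 1 library per group no test was run. The functions were tested on simulated data. Members and lists were chosen with earlier results of these data known. Named genes were the 5 highest and 5 lowest of each subunit, every member outside the main lists, the stalk and 5S genes, and the ends of each list and level range. Some other list members, such as Larp1, are named outside this rule. A few genes that this rule names are not reported here, singly or in the plot by gene, but count in all summaries. Alternatives covered the pseudocount, the filter, scaling, tied loci, means and fold thresholds. Python 3.11.15, scipy 1.17.1, pandas 2.3.3 and statsmodels 0.14.6 were used.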

Additional observations from a re-analysis of the deposited data

How the results depend on the processing

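No paired analysis was possible because there were no replicates, for which reason none was left out either. Of 78 values under alternatives, 63 moved by less than counting error (or, for counts, by less than 1.5 times) and none changed direction. Dividing by each library's own read total gave medians of -0.35 (large), -0.42 (small) and -0.37 (all main genes), and upper quartile scaling gave -0.35, -0.42 and -0.37. A correction for GC content, chosen after seeing the data, gave -0.37 over all main genes. Of the main genes, 6 were at least 1.5-fold lower and 0 at least 2-fold lower, against 50 at 1.2-fold. The share of reads in main genes, in control and knockdown, was 8.31% and 6.22% of protein-coding reads, 8.12% and 6.05% without mitochondrially encoded genes, and 9.63% and 7.32% with tied loci. The difference between the subunits' medians stayed between 0.06 and 0.09. Depth limits Rpl24, Rpl29 and Rpl21, with under 100 reads each.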
